A study of Homo sapiens with 12 samples.

Results

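Some probe sets on an exon array carry the symbols of several genes at once, because the stretch of RNA they read is annotated to more than 1 gene. The probe sets described here have an annotation entry with 2 or more symbols and a mean log2 signal over the 12 arrays that exceeds the median mean of the whole array. There are 10747 such members among 1411399 probe sets. They are 70.1% of the 15322 probe sets with several symbols, against 72.2% of the 357604 with 1 symbol and 42.1% of the 1038473 with none. The threshold was 2.04 on the log2 scale. A probe set of the olfactory receptor entry OR1D4/OR1D5 lay just inside it at 2.03677, and a probe set of UGT1A10/UGT1A6 lay just outside at 2.03657. Of the members, 524 lay within 0.1 of the threshold. Because the members were chosen on that mean, their levels are given as a description.

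The arrays were made from U2OS cells, a human osteosarcoma line, that stably express K294A under doxycycline control. K294A is a form of the capping enzyme without activity, and the study's title asks for the RNAs that regain a cap in the cytoplasm. Each of 4 groups had 3 arrays: uninduced cells without Xrn1, uninduced cells with Xrn1, induced cells without Xrn1 and induced cells with Xrn1. Induced cells received doxycycline at 1 ug/ml for 24 h. All 4 groups carry the transgene, so the uninduced groups are not the parental line. No group received doxycycline without the transgene, so effects of the drug and of K294A cannot be told apart in any comparison of the states. The RNA was cytoplasmic and depleted of ribosomal RNA, and the Xrn1 groups were digested with that enzyme after extraction. The labels call the arrays of a group biological replicates and do not say that they came from separate cultures, so the p-values measure only the spread between these samples. One Xrn1 array carries the same replicate number in its title as another of its group, and its replicate number was taken from its sample number instead.

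A cap protects the 5′ end of an mRNA, and Xrn1 is an exonuclease that digests RNA from an uncapped 5′ end carrying a monophosphate. Digestion with Xrn1 before labelling therefore reads out which RNAs are accessible to it in the test tube. Genes share probe sets for different reasons: duplicated genes with near-identical exons, processed pseudogenes copied from an mRNA, genes that overlap or are read through into each other, clusters that splice many first exons to common ones, and small RNAs that lie inside a host gene. A shared probe set cannot say which of its genes the RNA came from. An entry is therefore named below by all its symbols, joined by slashes, and long entries by their first symbols and a count. The symbols are those of the deposited annotation, some of them old. Of the 2261 symbols on members, 1764 are current, 451 are older names of a current gene and 46 matched no current gene.

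Members were of several kinds, and the start regions of a few listed genes illustrate how such genes relate in sequence and place. The sequences are from RefSeq on GRCh38.p14 and lie mostly before the annotated start. They do not show the stretch that a probe set reads: the probe sequences themselves were not used here. MAGEA3 and MAGEA6, cancer-testis antigens of chromosome X, have the same 300 bases from 250 before to 50 after the annotated start, and their shared entry rose with Xrn1. Capitals mark the 50 bases after the start. MAGEA3 lies at chrX:152698544-152698843 on the plus strand and MAGEA6 at chrX:152769640-152769939 on the minus strand.
MAGEA3: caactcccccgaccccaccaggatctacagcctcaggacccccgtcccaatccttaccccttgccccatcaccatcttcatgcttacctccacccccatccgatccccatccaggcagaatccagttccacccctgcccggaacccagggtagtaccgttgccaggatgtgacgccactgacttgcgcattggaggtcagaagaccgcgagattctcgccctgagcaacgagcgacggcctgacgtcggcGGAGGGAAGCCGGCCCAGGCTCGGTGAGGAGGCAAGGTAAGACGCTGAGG
MAGEA6: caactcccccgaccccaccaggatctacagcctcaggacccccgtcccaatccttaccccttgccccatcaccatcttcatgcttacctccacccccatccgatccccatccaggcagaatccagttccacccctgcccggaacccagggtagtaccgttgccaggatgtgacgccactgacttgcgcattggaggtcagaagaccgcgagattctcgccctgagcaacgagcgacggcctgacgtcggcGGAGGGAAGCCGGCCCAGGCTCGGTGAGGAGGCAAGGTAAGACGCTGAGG

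RABL2A and RABL2B, small GTPase genes, lie on different chromosomes and stand for the entries whose copies were dispersed. Their windows were 98% identical, and capitals mark the 5 bases of each that differ from the other in the alignment. RABL2A lies at chr2:113627016-113627315 on the plus strand and RABL2B at chr22:50783587-50783886 on the minus strand.
RABL2A: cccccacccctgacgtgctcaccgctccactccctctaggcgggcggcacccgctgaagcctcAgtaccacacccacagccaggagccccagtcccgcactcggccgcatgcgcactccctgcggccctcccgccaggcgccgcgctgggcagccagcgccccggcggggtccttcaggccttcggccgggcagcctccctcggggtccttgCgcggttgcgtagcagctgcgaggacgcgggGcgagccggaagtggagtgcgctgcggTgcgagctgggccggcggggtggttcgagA
RABL2B: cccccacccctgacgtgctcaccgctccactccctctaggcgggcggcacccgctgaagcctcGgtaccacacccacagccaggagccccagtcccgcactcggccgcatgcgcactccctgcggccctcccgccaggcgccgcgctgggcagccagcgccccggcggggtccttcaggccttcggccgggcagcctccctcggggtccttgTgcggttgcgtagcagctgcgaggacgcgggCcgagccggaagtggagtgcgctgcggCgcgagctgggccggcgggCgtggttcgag

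ATM, the kinase of the DNA damage response, and NPAT, an activator of histone gene transcription, are head-to-head neighbours. Their start regions overlap on opposite strands, and capitals mark the 72 bases that both windows cover. That stretch lies before the annotated start of both genes. ATM lies at chr11:108222817-108223116 on the plus strand and NPAT at chr11:108222589-108222888 on the minus strand.
ATM: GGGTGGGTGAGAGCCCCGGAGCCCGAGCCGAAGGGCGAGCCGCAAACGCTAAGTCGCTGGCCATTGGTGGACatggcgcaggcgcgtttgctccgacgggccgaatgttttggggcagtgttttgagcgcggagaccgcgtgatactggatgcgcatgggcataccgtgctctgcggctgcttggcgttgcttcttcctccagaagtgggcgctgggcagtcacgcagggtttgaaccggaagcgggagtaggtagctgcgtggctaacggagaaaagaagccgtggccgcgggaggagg
NPAT: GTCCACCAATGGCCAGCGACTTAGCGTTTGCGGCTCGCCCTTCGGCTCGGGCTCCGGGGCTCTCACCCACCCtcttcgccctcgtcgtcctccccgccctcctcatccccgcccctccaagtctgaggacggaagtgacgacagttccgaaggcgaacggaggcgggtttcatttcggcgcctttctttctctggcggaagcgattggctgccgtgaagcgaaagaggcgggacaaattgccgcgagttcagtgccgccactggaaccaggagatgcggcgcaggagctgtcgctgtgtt

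The microRNA hsa-miR-21-5p stands for the small RNAs inside a host gene, because probe sets annotated to MIR21 and its host symbol TMEM49 fell with Xrn1. Its mature sequence lies at chr17:59841273-59841294 on the plus strand, and capitals mark its seed, bases 2 to 8.
hsa-miR-21-5p: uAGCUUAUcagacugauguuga

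Such identity was not the rule at the start of genes. Windows of this length were held for both genes of 1288 pairs of symbols in 388 of the entries, and their median identity was 48.8%. At least 90% identity was found in 258 pairs and at least 99% in 126. In 16 pairs both symbols had the same window. The median was 58.7% for genes on 1 chromosome that do not overlap and 47.3% for genes on different chromosomes.

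The members formed 1584 entries, that is, distinct sets of symbols, and 478 of these had only 1 member. An entry held a median of 3 members and at most 128. Of the members, 7073 listed 2 symbols, 1834 listed 3, 1619 listed 4 to 9 and 221 listed 10 or more. Symbols that map to 1 chromosome without overlapping accounted for 7145 members, and symbols on different chromosomes for 2134. Readthrough genes accounted for 240 members, overlaps on 1 strand for 278, shared-exon clusters for 69 and small RNAs with a host gene for 65. A further 268 members listed several names of what is now 1 gene, and 352 listed symbols without a position. A pseudogene was among the symbols of 3449 members, or 32.1%.

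The members spanned levels from the threshold to 12.9, with a median of 3.34 and an upper quartile of 4.60. Across arrays, the share of members above a level of 6 was 12.3% to 19.2% on the 6 arrays without Xrn1 and 9.42% to 12.1% on the 6 with Xrn1. The ranges did not overlap, but only narrowly. Over all probe sets above the median they did, at 5.25% to 7.79% without Xrn1 and 5.75% to 6.49% with it. For probe sets with 1 symbol they also overlapped, at 8.12% to 14.7% and 6.44% to 8.46%. Within groups, arrays correlated over the members at 0.81 to 0.90 for uninduced with Xrn1, 0.86 to 0.95 for uninduced without, 0.84 to 0.89 for induced without and 0.92 to 0.93 for induced with Xrn1. Arrays were not always closest to their own group. Induced untreated replicate 3 correlated at 0.88 to 0.96 with uninduced arrays without Xrn1, and at 0.87 and 0.89 within its group. Because the values were normalised to a common distribution, a change is one of relative signal within the array and does not give the amount of RNA per cell. Of 9 osteoblast lineage genes, COL1A1 and SPARC were at 8.85 and 8.63 in uninduced cells without Xrn1, and the others, among them RUNX2, SP7 and BGLAP, at 1.91 to 3.59. The median of the 9 was 2.83, below the median of 3.21 for markers of other cell types in the same group. Of 12 markers of other cell types, 10 were measured, at group means of 2.06 to 4.40. Of these, 5 were higher with Xrn1 in induced cells and 0 in uninduced cells, and their part in the rises described below was not tested. RNGTT, which encodes the capping enzyme, was at 3.79 ± 0.89 (SD, n = 3) in uninduced and 4.00 ± 0.67 (SD, n = 3) in induced cells without Xrn1. That difference of 0.21 did not pass the test (limma adjusted p = 0.69), and it checks the labels only if its probe sets match the transgene.

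**Figure D1:**
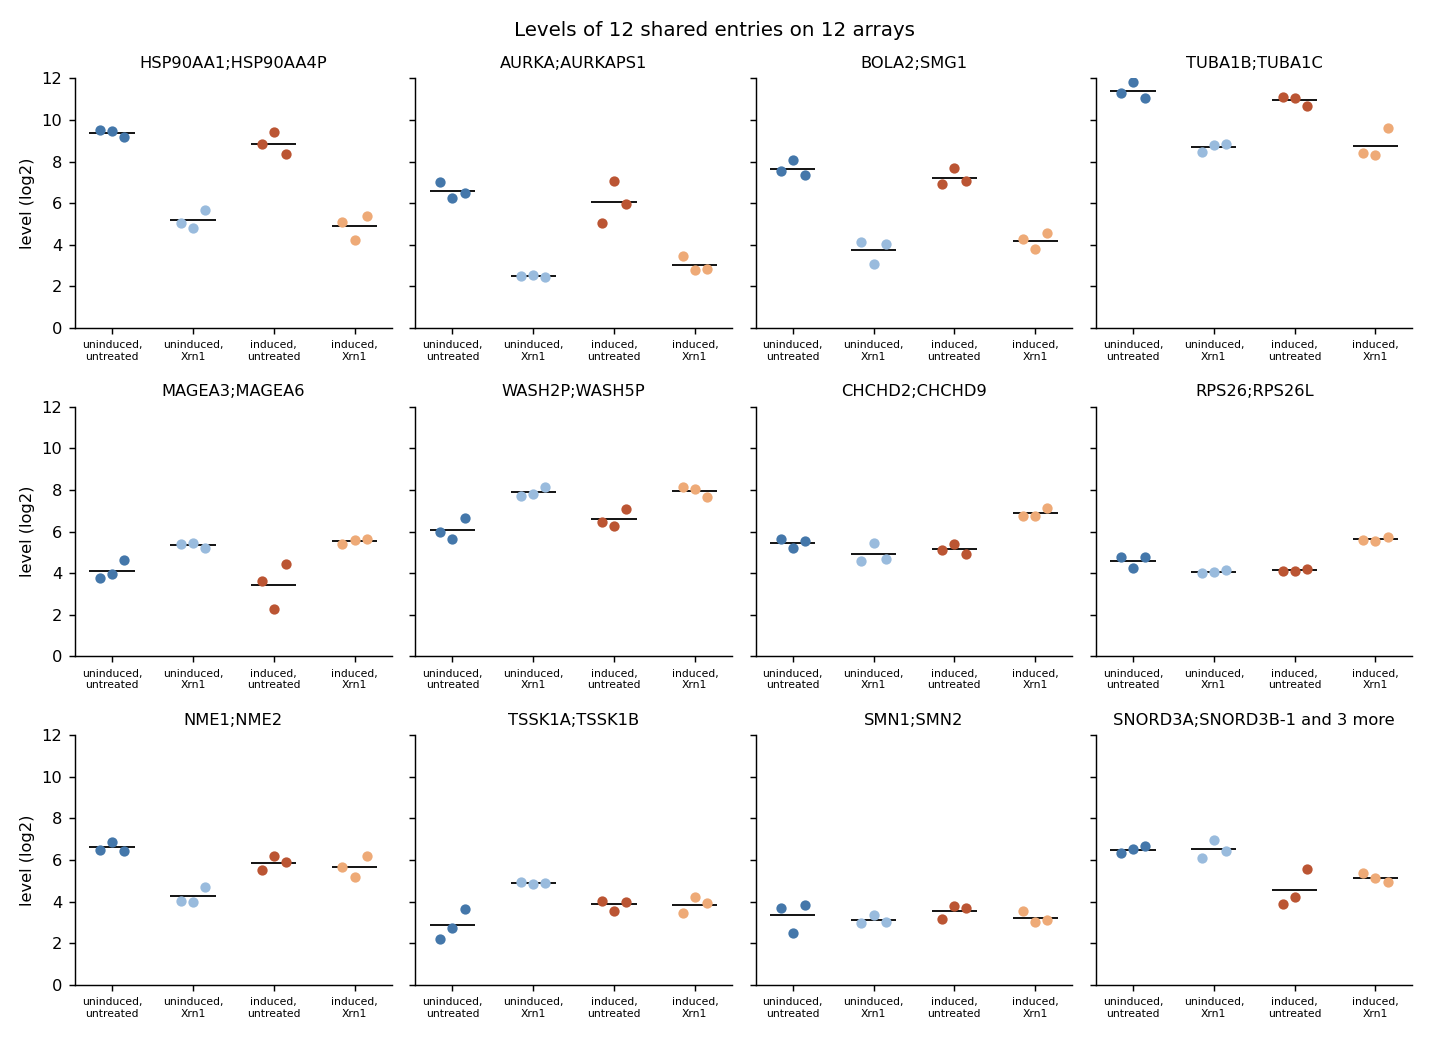
Levels of shared entries on each of the 12 arrays, in log2 units, with 1 point per array and the arrays grouped by induction and Xrn1. HSP90AA1/HSP90AA4P lies above 8.3 on the arrays without Xrn1 and below 5.7 on those with it, while MAGEA3/MAGEA6 is higher with Xrn1 in both states.

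Xrn1 digestion of RNA from uninduced cells asks which RNAs are accessible to the enzyme when the inactive capping enzyme is not induced. Single probe sets were tested first. Of the 10747 members, 3079 changed, 457 upward and 2622 downward, at an adjusted p under 0.05 in limma's test over all 705699 probe sets above the median. That is 28.6% of members, where 18.4% of all probe sets tested and 28.2% of those with 1 symbol were called. Among all probe sets tested 7.54% were called higher and 10.8% lower. Members were thus called about as often as other probe sets that carry a gene symbol. To reduce noise, members of 1 entry were then averaged on each array where at least 3 were kept, which left 838 shared entries holding 9733 members. They were fitted with 16919 single-symbol entries, 17757 in all. Of the shared entries 339 changed, 63 upward and 276 downward. The upward counts were the less stable: members called higher were 239, 226 and 289 without uninduced untreated replicate 2, uninduced Xrn1 replicate 3 and uninduced untreated replicate 1. Entries called higher were 30 and 37 without the first and second of these. This is 40.5%, where 38.8% of all entries were called, 7.1% upward and 31.7% downward. The median change was -0.31 for shared entries and -0.27 for all entries. For entries limma used 1 pooled spread in place of each entry's own, so each contrast of 2 groups has the same standard error of 0.34 whatever its own spread. The groups did not overlap for 380 of the 838 entries, or 45.3%, where 44.8% of all entries did not overlap.

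The 5 deepest falls were taken among called entries whose groups did not overlap, and they ran from 3.61 to 4.19. HSP90AA1/HSP90AA4P pairs the cytosolic chaperone HSP90 alpha with a pseudogene. It read 9.51, 9.47 and 9.16 without Xrn1 and 5.06, 4.82 and 5.68 with Xrn1. Every digested array was thus far below every undigested one, and the entry fell by 4.19 on the log2 scale (limma adjusted p = 2.5e-30). AURKA/AURKAPS1, a mitotic kinase and its pseudogene, read 7.02, 6.23 and 6.50 without Xrn1 and 2.49, 2.55 and 2.43 with it. It fell by 4.10 (adjusted p = 3.2e-29), to a level near the threshold used for members. BOLA2/SMG1 joins an iron-sulphur protein gene to the kinase of nonsense-mediated decay and fell by 3.91. It read 7.53, 8.06 and 7.36 without Xrn1 against 4.11, 3.08 and 4.05 with it. PDIA3/PDIA3P, an endoplasmic reticulum disulphide isomerase and its pseudogene, fell by 3.78 from 8.88, 9.0 and 8.48 to 4.78, 5.15 and 5.08. LRRC37A/LRRC37A2/LRRC37A4, a duplicated leucine-rich repeat family, fell by 3.61 from 5.99, 5.64 and 5.40 to 2.06, 1.86 and 2.28. Each of these 5 entries remained called when any 1 array was left out and when its own spread was used.

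Smaller falls came in entries of several levels. TUBA1B/TUBA1C, alpha tubulins, read 11.29, 11.83 and 11.07 without Xrn1 and 8.46, 8.78 and 8.84 with it, and so fell by 2.70. EEF1A1/EEF1AL7, the translation elongation factor that delivers aminoacyl-tRNA, read 11.24, 11.20 and 10.91 against 8.73, 9.47 and 8.86 and fell by 2.10. All 26 of its probe sets were called lower. ATM/NPAT, whose start regions are printed above, fell by 2.27 from 4.39, 4.10 and 4.10 to 2.17, 1.40 and 2.22 (adjusted p = 8e-10). RABL2A/RABL2B read 4.64, 3.87 and 4.58 against 3.32, 3.27 and 3.42 and fell by 1.03 (adjusted p = 0.0098). The groups of these entries did not overlap.

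Rises were fewer, and the 5 largest were taken by the same rule. FAM90A12/FAM90A7, a duplicated primate family, read 2.34, 2.67 and 2.81 without Xrn1 and 6.61, 4.34 and 5.78 with it, a change of 2.97 (adjusted p = 4.2e-16). TSSK1A/TSSK1B, testis-specific kinases, read 2.21, 2.71 and 3.63 against 4.92, 4.84 and 4.89, a change of 2.03. FAM90A14/FAM90A20 and 3 more changed by 1.85. WASH2P/WASH5P are pseudogenes of a subunit of the WASH complex, which drives actin assembly on endosomes. They read 5.97, 5.66 and 6.64 against 7.70, 7.81 and 8.14, a change of 1.79. PCDHGA12/PCDHGC4, clustered protocadherins of cell adhesion, changed by 1.62. Apart from WASH2P/WASH5P, these 5 entries were dim without Xrn1, with group means under 3. MAGEA3/MAGEA6 read 3.76, 3.95 and 4.61 without Xrn1 and 5.40, 5.45 and 5.23 with it, a rise of 1.25 (adjusted p = 0.0012) that was not called with the entry's own spread.

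The same comparison in induced cells asks which RNAs are accessible after doxycycline, given to induce the inactive enzyme. Of the members, 2263 changed, 822 upward and 1441 downward, which is 21.1% where 12.4% of all probe sets tested and 18.3% of those with 1 symbol were called. Among all probe sets tested 6.89% were called higher and 5.52% lower. Leaving out 1 array lowered this to 823 without induced Xrn1 replicate 2, 931 without induced untreated replicate 2, 1339 without induced Xrn1 replicate 1 and 1373 without induced Xrn1 replicate 3. The upward count of 822 was 142, 145, 284 and 323 without induced untreated replicate 2 and induced Xrn1 replicates 2, 1 and 3, and 473 without induced untreated replicate 1. The downward count of 1441 was 678 without induced Xrn1 replicate 2 and 789 without induced untreated replicate 2. Without induced untreated replicate 3 rises outnumbered falls, at 1645 and 1353. Of the 838 shared entries 382 changed, or 45.6%, where 39.4% of all entries were called, 21.6% upward and 17.8% downward. The median change was 0.18 for shared entries and 0.11 for all. As deposited, 212 entries rose and 170 fell. With each array centred on its median the split was 174 and 221, and with cyclic loess 142 and 252, so the balance of rises and falls turned with the scaling. It also turned with single arrays: the split was 163 and 197 without induced untreated replicate 1, 74 and 109 without replicate 2 of that group, and 137 and 140 without induced Xrn1 replicate 3. Those scalings moved the median of all entries from 0.11 to -0.08 and to -0.17. The count dropped to 183 when induced untreated replicate 2 was left out and to 105 with each entry's own spread. The groups did not overlap for 439 entries, or 52.4%, against 50.9% of all entries.

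**Figure D2:**
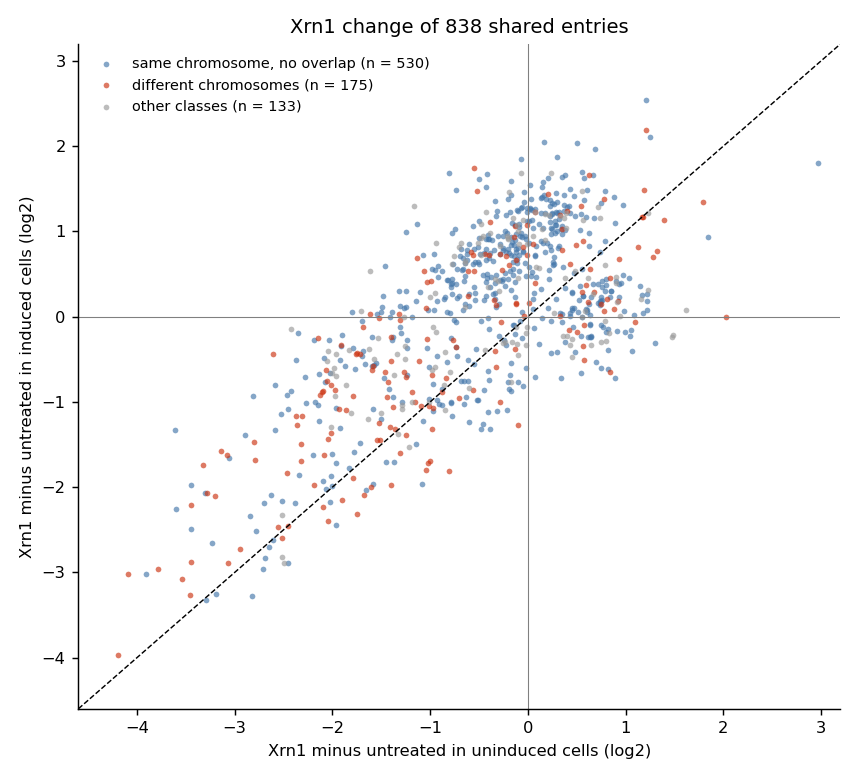
Change with Xrn1 in uninduced cells (horizontal axis, log2) against the change in induced cells (vertical axis, log2) for the 838 shared entries, 1 point per entry, coloured by where the listed genes lie; the dashed line marks equal change. HSP90AA1/HSP90AA4P is the lowest point, at -4.19 and -3.97, and most points lie above the line, as the median difference of 0.69 states.

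HSP90AA1/HSP90AA4P again had the deepest fall among the named entries, from 8.86, 9.40 and 8.34 without Xrn1 to 5.10, 4.22 and 5.37 with it, a fall of 3.97 (adjusted p = 1.3e-26). Next came RGPD1/RGPD2 and 5 more, genes related to the nuclear pore protein RANBP2, which fell by 3.32. Its levels were 5.79, 6.79 and 6.36 without Xrn1 and 3.40, 2.71 and 2.87 with it. CCT6A/CCT6P1, a subunit of the TRiC chaperonin and its pseudogene, fell by 3.28 from 8.21, 8.89 and 8.0 to 5.63, 4.28 and 5.34. HSP90AA1/HSP90AA2 fell by 3.27 and RGPD1/RGPD2 and 3 more by 3.25. All 5 entries had also fallen in uninduced cells, by 4.19, 3.29, 2.82, 3.46 and 3.19. TUBA1B/TUBA1C fell by 2.19 and EEF1A1/EEF1AL7 by 2.23 in induced cells. ATM/NPAT fell by 1.01 (adjusted p = 0.013), while the change of RABL2A/RABL2B was -0.26 (adjusted p = 0.59).

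The 5 leading rises in induced cells, taken by the same rule, ran from 2.04 to 2.54. DUB3/USP17L3/USP17L4, deubiquitinases, read 3.07, 2.63 and 4.03 without Xrn1 and 6.68, 5.93 and 4.74 with it, a change of 2.54. VCX/VCX2 and 4 more, germ cell genes of the sex chromosomes, changed by 2.19. MAGEA3/MAGEA6 read 3.64, 2.27 and 4.42 against 5.42, 5.60 and 5.65 and changed by 2.11 (adjusted p = 4.8e-08). DAZ1/DAZ4, RNA-binding proteins of spermatogenesis, changed by 2.05, and A1BG/ZNF497, a plasma glycoprotein gene and its zinc finger neighbour, by 2.04. Only MAGEA3/MAGEA6 of the 5 was also called with its own spread. Without induced untreated replicate 2, which was the lowest array for each, all 5 were still called.

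Read by level, the falls followed how bright an entry was. In uninduced cells, 15% of the 240 shared entries with a mean level under 3 fell, with a median change of -0.08. The share was 24.5% of 335 entries at 3 to 4, 55.6% of 214 at 4 to 6 and 79.6% of 49 at 6 and over. Their medians were -0.10, -1.02 and -1.96. Single-symbol entries went through the same steps, at 12.9%, 30.8%, 55.1% and 83.4%, with medians of 0.06, -0.27, -0.97 and -1.77. The level is the mean over all 12 arrays and so includes the digested ones. Dim entries lie close to the median of all probe sets, 2.09 to 2.25 across arrays, and so have less room to fall. The part of this limit in the steps was not tested. In induced cells the medians of the shared entries were 0.27, 0.38, -0.33 and -1.29 over the same steps.

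**Figure D3:**
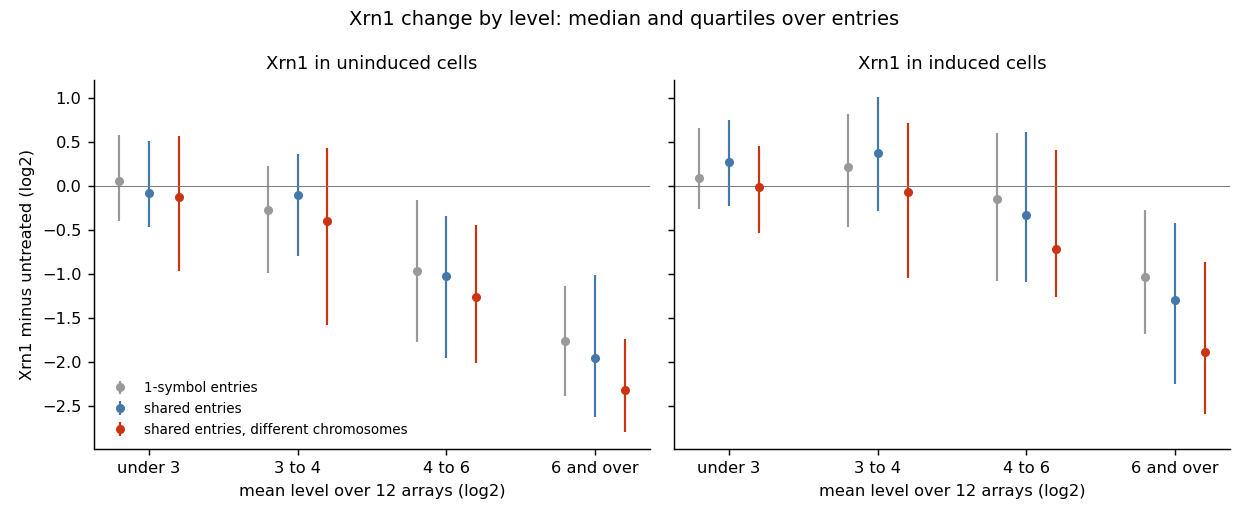
Median change with Xrn1 (points) and its quartiles over entries (bars), in log2 units, by mean level over 12 arrays, for single-symbol entries, shared entries and shared entries whose genes lie on different chromosomes. In uninduced cells the medians run from near 0 in dim entries to -1.96 for shared and -2.32 for different-chromosome entries at 6 and over.

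Entries whose genes lie on different chromosomes include many processed pseudogenes beside their parent gene. These counts are to be read against all entries, of which 31.7% fell and 7.1% rose in uninduced cells and 17.8% fell and 21.6% rose in induced cells. Of 175 such entries 95 fell and 17 rose in uninduced cells, with a median of -1.01. In induced cells 68 fell and 25 rose, with a median of -0.43. Within the steps of level their medians in uninduced cells were -0.13, -0.40, -1.27 and -2.32, each below that of all shared entries. At a level of 6 and over 90.5% of 21 such entries fell. Among the 530 entries on 1 chromosome without overlap, those whose nearest listed genes lie under 100 kb apart split into 21 rises and 61 falls of 289. Those over 1 Mb apart split into 4 rises and 45 falls of 125. In induced cells the counts were 87 and 30 under 100 kb, and 31 and 25 over 1 Mb. Listing a pseudogene went with a lower median as well: it was -0.51 in 248 entries with a pseudogene and -0.22 in 590 without, in uninduced cells. The median level without Xrn1 was 3.79 in the first and 3.53 in the second, and the part of level in this difference was not tested. These comparisons of groups of entries carry no test.

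Families of genes moved in different directions. The lists are of symbols by pattern, and the counts are of shared entries that passed limma's test over all 17757 entries, to be read against 38.8% in uninduced and 39.4% in induced cells. Counts for the interaction are to be read against 21% of all entries. Entries of the translation machinery mostly fell in uninduced cells. Of 3 entries of initiation factors, EIF3C/EIF3CL fell by 2.20 and EIF5A/EIF5AL1 by 2.37 in uninduced cells, and by 1.62 and 1.16 in induced cells, where the other entry rose. EIF3C/EIF3CL read 7.75, 8.13 and 7.78 without Xrn1 and 5.38, 5.71 and 5.97 with it. The fall of EIF5A/EIF5AL1 in induced cells was not called without induced Xrn1 replicate 2 (-0.98, adjusted p = 0.057). Of 7 entries of ribosomal proteins 5 fell and 0 rose in uninduced cells, with a median of -0.97. RPLP0/RPLP0P2, the stalk protein of the large subunit, fell by 1.75 and RPL37/SNORD72 by 1.29. That count was 2 without uninduced untreated replicate 1 or uninduced Xrn1 replicate 1, and 3 without uninduced Xrn1 replicate 3. In induced cells 2 fell and 1 rose, and without induced Xrn1 replicate 2 or induced untreated replicate 2 the falls were 0.

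Entries of protein secretion and turnover come next. TMED10/TMED10P, which sorts cargo between the endoplasmic reticulum and Golgi, fell by 3.45 in uninduced and by 2.21 in induced cells. It read 7.51, 6.62 and 6.51 without Xrn1 and 3.23, 3.49 and 3.58 with it, in uninduced cells. Of the 13 entries matched by TMED or TMEM, 6 fell and 1 rose in uninduced cells. Of 4 proteasome entries 2 fell in each state and 1 rose in induced cells. KIAA0391/PSMA6, which joins a mitochondrial RNA processing subunit to a proteasome core subunit, fell by 3.23 and by 2.65. PIPSL/PSMD4, a proteasome ubiquitin receptor with a fused retrocopy, fell by 1.18 and by 0.88. The fall of 0.88 was not called without any of the induced Xrn1 replicates or without induced untreated replicate 2, where it was 0.50. HSPA1A/HSPA1B, the inducible heat shock protein 70 genes, read 6.06, 4.86 and 5.69 against 4.56, 5.39 and 4.63. These groups overlapped. In induced cells they did not, at 4.99, 5.90 and 5.34 against 4.92, 4.35 and 4.72. Its changes of -0.68 and -0.75 did not pass in either state.

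Duplicated families differed from each other. All 4 entries that pair an actin-like gene with POTE genes, which carry an actin-derived part, fell in both states, with medians of -1.50 and -1.89. With each entry's own spread 2 of them passed in uninduced and 3 in induced cells. ACTBL3/POTEE/POTEF read 7.23, 6.72 and 7.13 against 4.81, 5.62 and 4.88 in uninduced cells. Of 9 NBPF entries, a family of repeated protein domains expanded in primates, 6 fell and 0 rose in both states, with medians of -1.78 and -1.58. KIAA1245/NBPF1 and 9 more fell by 2.52 and by 2.16. Of 6 GOLGA entries, golgin-like genes of segmental duplications, 0 changed in uninduced cells and all 6 rose in induced cells, with medians of 0.23 and 0.99. The difference between the states passed limma's interaction test for 0 of the 6. Markers of other cell types were also higher with Xrn1 in induced cells, 5 of 10, and their part was not tested. With each array centred 4 of the 6 were called, with cyclic loess 3, with their own spread 0, and without induced untreated replicate 2 or induced Xrn1 replicate 2 there were 2 and without induced Xrn1 replicate 3 there were 3. GOLGA8E/GOLGA8F/GOLGA8G, with 93 probe sets, read 2.71, 2.90 and 3.80 without Xrn1 and 4.20, 4.31 and 4.27 with it. GTF2I/GTF2IP1, a transcription factor gene and its pseudogene within the Williams syndrome region, fell by 2.07 and by 2.03. The survival motor neuron entry SMN1/SMN2 read 3.71, 2.50 and 3.83 against 2.99, 3.37 and 3.01 in uninduced cells, with overlapping groups. Its changes of -0.22 and -0.33 did not pass.

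Of 13 cancer-testis entries, genes usually silent outside the germline and tumours, 1 rose and 3 fell in uninduced cells, while 10 rose and 0 fell in induced cells. The interaction passed for 4 of the 13, where 21% of all entries were called. The medians of the 13 were 0.15 in uninduced and 1.04 in induced cells. Among the 3 falls in uninduced cells, that of GAGE10/GAGE12B and 11 more kept its call in only 5 of 21 alternatives. The count of 10 was 8 with each array centred, 7 with cyclic loess and 4 with each entry's own spread. It was 5 without induced untreated replicate 1 or 2, 6 without induced Xrn1 replicate 2, and 7 without induced Xrn1 replicate 1 or 3. GAGE10/GAGE12B and 11 more read 1.65, 3.82 and 2.76 without Xrn1 and 4.67, 4.06 and 4.56 with it in induced cells, a rise of 1.69. XAGE1A/XAGE1B and 3 more, with 46 probe sets, changed by 0.85 (adjusted p = 0.038), a call lost without any 1 of 6 arrays: both induced untreated replicates 1 and 2, the 3 induced Xrn1 arrays and uninduced Xrn1 replicate 3. In the same induced cells 5 of 10 markers of other cell types were also higher with Xrn1, as given above.

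Olfactory receptors, best known from the nose, and UGT1A enzymes, best known from the liver, were dim. The difference between the states passed limma's interaction test for 1 of 11 and 1 of 8 of their entries. Of 11 olfactory receptor entries 5 rose and 0 fell in uninduced cells, with a median of 0.75, and 0 were called in induced cells, with a median of -0.07. The count of 5 was 3 with each array centred or with cyclic loess, 1 with each entry's own spread, and 1 without uninduced untreated replicate 1 or 2. It was 2 without uninduced Xrn1 replicate 2 or 3, and 3 without any induced Xrn1 array or without induced untreated replicate 3. OR2T2/OR2T35 read 2.11, 1.97 and 2.45 without Xrn1 and 3.36, 3.45 and 3.24 with it, a change of 1.17. Of 8 UGT1A entries, which encode glucuronosyltransferases of drug and bilirubin clearance from a cluster of alternative first exons, 5 rose in uninduced and 2 in induced cells. Their medians were 1.03 and 0.27. UGT1A3/UGT1A6 rose in both, by 1.23 and 1.22, from 2.20, 2.20 and 2.85 to 3.66, 3.51 and 3.77 in uninduced cells. With each entry's own spread the 5 became 2, and without uninduced untreated replicate 2 they became 3. The 2 in induced cells became 1 without induced untreated replicate 1. In uninduced cells the group means of all these olfactory receptor and UGT1A entries lay below 4, with and without Xrn1.

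**Figure D4:**
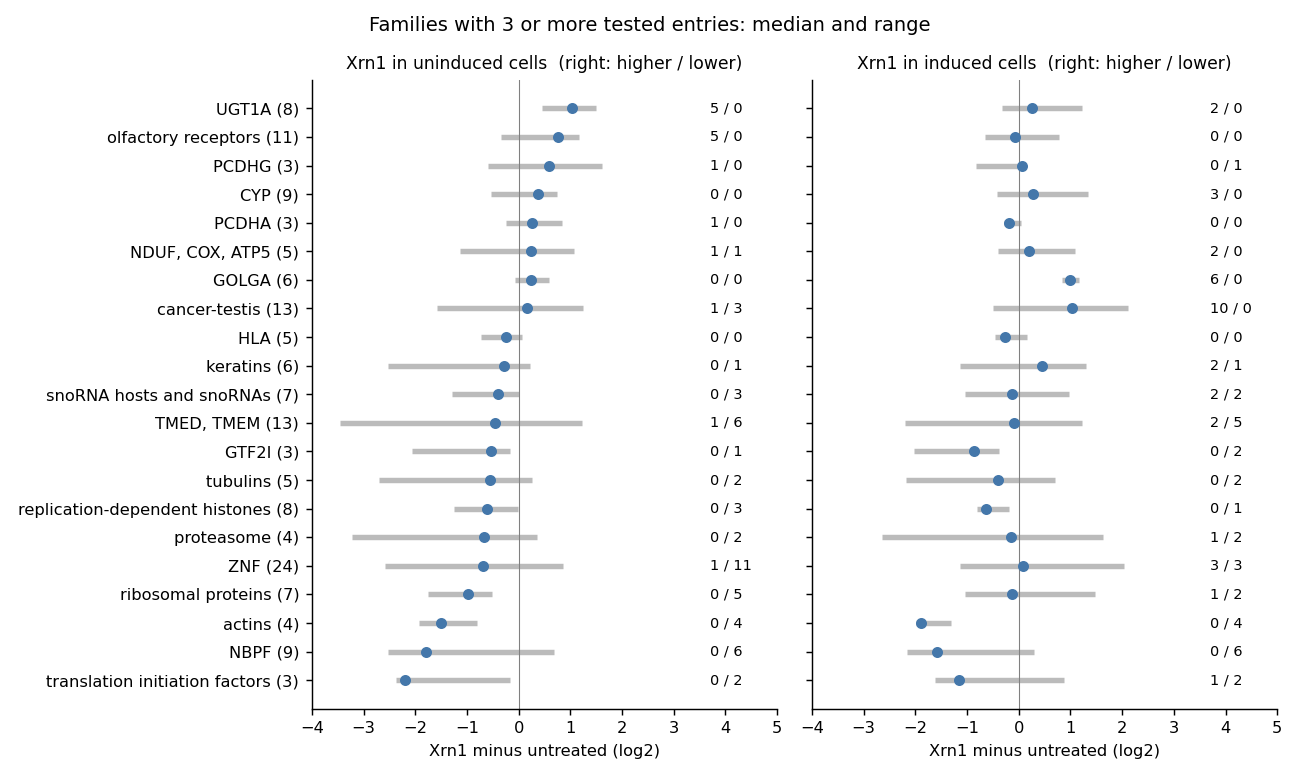
Change with Xrn1 (log2) of the shared entries of each gene family in uninduced and in induced cells. Points are medians and bars run from the lowest to the highest entry, and the numbers at the right count entries called higher and lower. The medians of NBPF and actin-like entries lie below 0 in both states, while those of GOLGA and cancer-testis entries in induced cells are 0.99 and 1.04.

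The remaining lists are described by their counts. Of 5 HLA entries, the antigen-presenting molecules, 0 were called in either state, and HLA-B/HLA-C/MICA changed by -0.74 and -0.35. Of 8 entries of replication-dependent histones, whose mRNAs end in a stem-loop, 3 fell in uninduced and 1 in induced cells. All 8 values were below 0, from -1.24 to -0.02 in uninduced and from -0.81 to -0.19 in induced cells. The uninduced count was 1 without uninduced Xrn1 replicate 1 or 3 or uninduced untreated replicate 1. With each array centred the induced count was 5 and with cyclic loess 6. HIST1H2AG/HIST1H2AI and 4 more fell by 1.24, from 10.21, 9.94 and 9.77 to 8.72, 9.22 and 8.26. Of 24 zinc finger entries 11 fell and 1 rose in uninduced cells, and 3 fell and 3 rose in induced cells. Without induced Xrn1 replicate 2 the falls in induced cells were 0, and without induced untreated replicate 2 or 3 they were 1. ZNF417/ZNF587 fell by 2.59 from 5.20, 5.35 and 5.00 to 2.28, 2.45 and 3.04. Of 9 cytochrome P450 entries 0 were called in uninduced and 3 rose in induced cells, 1 without induced untreated replicate 2. CYP2B6/CYP2B7P1 changed by 1.34. Of 6 keratin entries 1 fell in uninduced cells, KRT222P/SMARCE1, by 2.53, where SMARCE1 is a chromatin remodelling subunit. In induced cells 2 of the 6 rose and 1 fell.

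Members annotated to a small RNA and its host gene are mostly single probe sets, so they were read singly. Of 65, 14 fell and 2 rose with Xrn1 in uninduced cells, and 7 fell and 3 rose in induced cells. Among probe sets with 1 symbol 24.2% were called lower and 3.92% higher in uninduced cells, and 12.4% and 5.84% in induced cells, so these counts are near that background. One MIR21/TMEM49 probe set read 10.88, 11.58 and 10.64 without Xrn1 and 6.26, 3.40 and 6.66 with it. The change was -5.59 ± 0.66 (SE), and it was -4.41 in induced cells. The other read 7.26, 7.48 and 6.95 against 3.69, 3.42 and 4.39, a change of -3.40, and -3.07 in induced cells. Both changes passed in both states. The label used whole-transcript fragments, so the arrays do not separate the mature microRNA printed above from the transcript that contains it. Both RPL23/SNORA21 probe sets, a ribosomal protein gene with a small nucleolar RNA in an intron, fell by 3.09 and 2.66. A probe set of SNORD116-15 and 7 more small nucleolar RNAs with SNRPN, a gene of the imprinted Prader-Willi region, fell by 3.45. SNORA11D/SNORA11E lists small nucleolar RNAs without a host gene and is not among the 65. Its probe sets changed by 2.43 and by 1.44 in uninduced cells, of which the first passed, and by 2.62 and 2.95 in induced cells, where both did.

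Induction of K294A without Xrn1 asks whether the cytoplasmic RNA itself differs after doxycycline, given to induce the inactive enzyme. In limma's test 0 of the 10747 members changed, where 0 of all probe sets tested were called (0% called). An unadjusted p under 0.05 was found for 1446 of the 10747 members, against 96686 of all 705699 probe sets tested. Of the shared entries 1 fell and 0 rose, where 0.0451% of all entries were called, 0.0113% upward and 0.0338% downward. It was SNORD3A/SNORD3B-1 and 3 more, copies of the U3 small nucleolar RNA that guides cleavage of the ribosomal RNA precursor. It read 6.33, 6.52 and 6.65 in uninduced and 3.88, 4.23 and 5.57 in induced cells, with no overlap, and fell by 1.94 (adjusted p = 0.00028). With Xrn1 it read 6.11, 6.96 and 6.45 in uninduced against 5.36, 5.12 and 4.93 in induced cells, a change of -1.37 that did not pass (adjusted p = 0.061). The call of the first change was lost without induced untreated replicate 1 (-1.60, adjusted p = 0.24), without uninduced untreated replicate 2 (-1.93, adjusted p = 0.17) and with its own spread. U3 is nucleolar in the cell, and here it was measured in cytoplasmic RNA. The median change was -0.37 for shared entries and -0.35 for all entries. Without induced untreated replicate 3 the number of shared entries called was 308. It was 2 without induced untreated replicate 2 or uninduced untreated replicate 1. It was 0 without induced untreated replicate 1 or uninduced untreated replicate 2. The groups did not overlap for 17.9% of shared and 23% of all entries.

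Induction in digested RNA asks which RNAs differ in what Xrn1 leaves. Of the members, 8 rose and 0 fell, where 0.00595% of all probe sets were called, 0.00581% higher and 0.000142% lower. They were 4 probe sets of RPSA/RPSAP15, 2 of RPS26/RPS26L and 2 of CHCHD2/CHCHD9. RPSA and RPS26 are proteins of the small ribosomal subunit, and CHCHD2 is a protein of the mitochondrial intermembrane space. One RPSA/RPSAP15 probe set read 2.62, 1.90 and 2.83 in uninduced and 6.32, 6.56 and 6.37 in induced cells, both with Xrn1. Without Xrn1 it read 4.63, 2.98 and 3.60 against 2.40, 3.16 and 1.14. The induced digested arrays thus stood above the other 9. The number of members called was 0 without induced Xrn1 replicate 2 or 3, 1 without induced Xrn1 replicate 1, 3 without uninduced Xrn1 replicate 1, 5 without uninduced Xrn1 replicate 3, and 15 without induced untreated replicate 2.

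Among the shared entries 5 rose and 0 fell, where 0.0845% of all entries were called, 0.0788% higher and 0.00563% lower. CHCHD2/CHCHD9 read 4.59, 5.47 and 4.69 in uninduced and 6.76, 6.76 and 7.14 in induced cells, a rise of 1.97 (adjusted p = 8.3e-05). RPS26/RPS26L read 3.99, 4.06 and 4.14 against 5.58, 5.54 and 5.73, a rise of 1.55 (adjusted p = 0.012). GAGE10/GAGE12B and 11 more rose by 1.55, NME1/NME2, nucleoside diphosphate kinases, by 1.43 and DUB3/USP17L3/USP17L4 by 1.75. In DUB3/USP17L3/USP17L4 the groups overlapped. The count of 5 was 1 without induced Xrn1 replicate 1 or uninduced Xrn1 replicate 2, 2 without induced Xrn1 replicate 2 or 3, induced untreated replicate 3, uninduced Xrn1 replicate 1 or uninduced untreated replicate 2, and 3 without uninduced Xrn1 replicate 3. The rise of CHCHD2/CHCHD9 was called whichever array was left out. The others were not: RPS26/RPS26L was lost without any 1 of the 6 digested arrays. GAGE10/GAGE12B and 11 more was lost without uninduced Xrn1 replicate 1 or 2, induced Xrn1 replicate 1 or 3, uninduced untreated replicate 2 or induced untreated replicate 3. NME1/NME2 was lost without any 1 of the 6 digested arrays, without uninduced untreated replicate 2 or 3, or without induced untreated replicate 3. DUB3/USP17L3/USP17L4 was lost without uninduced Xrn1 replicate 2, where it was 1.12, without induced Xrn1 replicate 1 or 2, uninduced untreated replicate 2 or induced untreated replicate 3.

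The difference between the Xrn1 effects in induced and uninduced cells was tested as an interaction. Of single members 8 were higher and 1 was lower, where 0.00907% of all probe sets were called, 0.00638% higher and 0.00269% lower. That count of 9 was 0 without induced untreated replicate 1, any induced Xrn1 array or uninduced untreated replicate 3, and 1 or 2 without the other uninduced untreated arrays or uninduced Xrn1 replicate 2 or 3. It was 15 without induced untreated replicate 2, 32 without uninduced Xrn1 replicate 1 and 793 without induced untreated replicate 3. Of the 838 shared entries 185 passed, 174 with a less negative or more positive change in induced cells and 11 the other way. That is 22.1%, where 21% of all entries were called, 19.8% upward and 1.18% downward. The median difference was 0.69 for shared entries and 0.70 for all entries. The count rests on single arrays. It was 10 without induced Xrn1 replicate 3, 14 without induced untreated replicate 1, 15 without uninduced Xrn1 replicate 2 and 16 without induced Xrn1 replicate 1. It was 58 and 74 without uninduced untreated replicates 3 and 2, 87 without induced Xrn1 replicate 2, 92 without induced untreated replicate 2 and 111 without uninduced Xrn1 replicate 3. Without induced untreated replicate 3 it was 389. With each entry's own spread 0 passed, and with the sample number as a block 22 did. In limma's test as reported 342 of the 838 had an unadjusted p under 0.05, against 7515 of all 17757 entries. The 9 differences between digested and undigested arrays of a state were wholly apart between the states in 132 entries, or 15.8%, against 21.6% of all.

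Among the entries called in the interaction, GAGE10/GAGE12B and 11 more had the largest named difference, 2.49 ± 0.49 (SE, adjusted p = 0.00069). It read 3.63, 3.69 and 3.72 against 2.72, 2.70 and 3.21 with Xrn1 in uninduced cells, where the change was -0.81. C17orf49/RNASEK, which includes an endosomal ribonuclease gene, differed by 2.47. It fell by 1.16 in uninduced cells and rose by 1.30 in induced cells, from 5.27, 5.09 and 5.08 to 4.25, 3.51 and 4.18, and from 3.25, 4.03 and 4.72 to 5.44, 5.00 and 5.46. CHCHD2/CHCHD9 differed by 2.30, with changes of -0.55 and 1.75. These 3 differences were called whichever array was left out. LRRC37A/LRRC37A2/LRRC37A4 differed by 2.28, as it fell by 3.61 in uninduced and by 1.33 in induced cells, and was lost without induced untreated replicate 1 (1.63, adjusted p = 0.07). DPH1/OVCA2, a diphthamide synthesis gene that overlaps another, differed by 2.28, with -2.43 and -0.15. NME1/NME2 differed by 2.16, from 6.50, 6.85 and 6.46 to 4.02, 3.99 and 4.72 in uninduced cells, and from 5.53, 6.19 and 5.89 to 5.65, 5.20 and 6.18 in induced cells. Both of these calls, and that of RPS26/RPS26L at 1.99, were lost without induced Xrn1 replicate 3. TSSK1A/TSSK1B differed by -2.04, with a rise of 2.03 in uninduced cells and -0.00 in induced cells, and was lost without induced Xrn1 replicate 1.

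Shared entries can be set against probe sets of their own genes, since an array also holds probe sets that list only 1 of the symbols. Where both had at least 3 kept probe sets, the within-array difference between the shared entry and the gene was tested, in 1001 pairs of 620 entries and 752 genes. In uninduced cells 430 pairs, or 43%, differed in their Xrn1 change. The shared entry was the lower of the pair in 328 (32.8%) and the higher in 102 (10.2%), with a median difference of -0.31. In induced cells 289 pairs (28.9%) differed, 211 lower (21.1%) and 78 higher (7.79%). For induction without Xrn1 0 pairs (0%) differed by limma, with 85 at an unadjusted p under 0.05. For induction with Xrn1 2 pairs differed (0.2%), 1 in each direction (0.0999%), and for the interaction 3 (0.3%). Of 251 entries with 2 symbols and probe sets of both genes, the shared entry differed from neither gene in 100, from 1 of them in 89 and from both in 62, in uninduced cells. In induced cells the numbers were 135, 80 and 36. The 2 sides of a pair were not matched for level. As falls followed level, its part in these differences, and in those named below, was not tested.

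**Figure D5:**
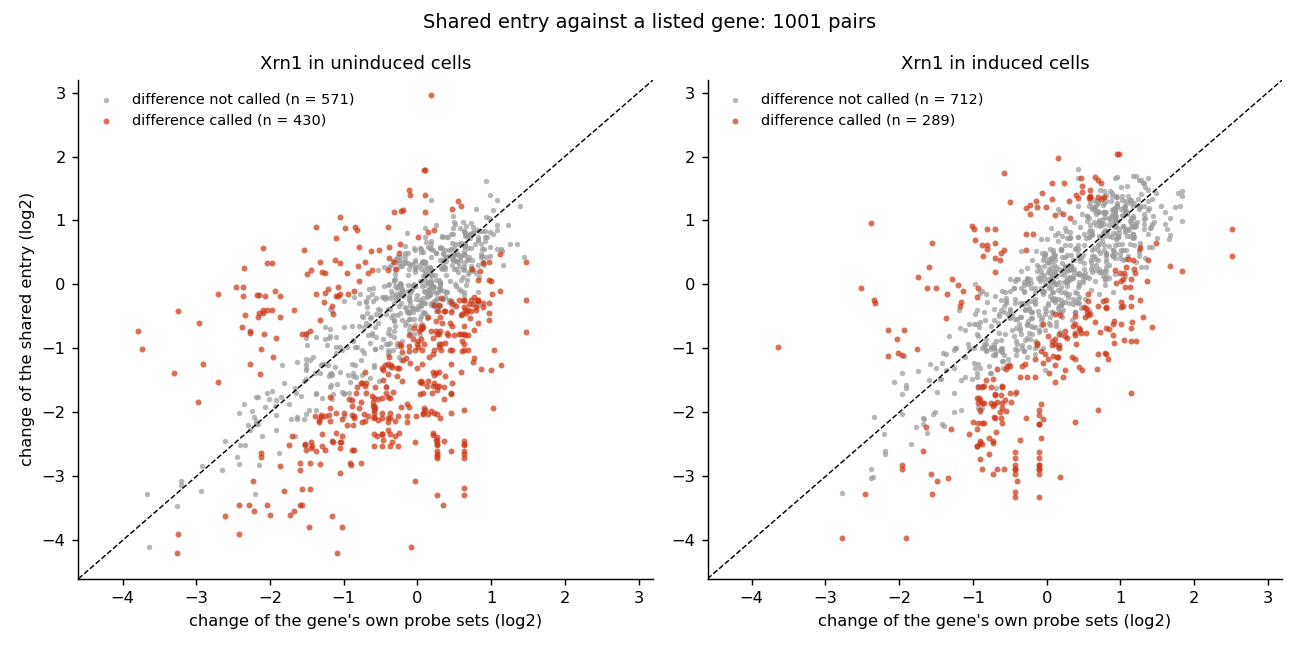
Change with Xrn1 of the gene's own probe sets (horizontal axis, log2) against that of the shared entry that lists it (vertical axis, log2) for 1001 pairs, with pairs whose difference passed the test in red and the dashed line at equal change. Of the 430 pairs called in uninduced cells 328 lie below the line.

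Several entries join a gene to its pseudogene. AURKA/AURKAPS1 fell by 4.10 in uninduced cells, and AURKA's own probe sets by 3.64, a difference that did not pass (adjusted p = 0.29). The own probe sets of AURKAPS1 changed by -0.09, and that difference did pass (adjusted p = 0.00016). HSP90AA1/HSP90AA2 did not differ from HSP90AA1 beyond the test, with -3.46 against -3.27 (adjusted p = 0.50). A separate entry, HSP90AA1/HSP90AA4P, differed from HSP90AA4P, at -1.09, by -3.11. Its comparison with HSP90AA1 is not given here. CCT6A/CCT6P1 at -2.82 did not pass against CCT6A at -2.15 (adjusted p = 0.066) and did against CCT6P1 at -0.91. RPLP0/RPLP0P2 at -1.75 did not pass against RPLP0 at -1.58 and did against RPLP0P2 at -0.61. EEF1A1/EEF1AL7 at -2.10 and GTF2I/GTF2IP1 at -2.07 passed against neither of their genes.

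Other entries stood apart from every gene that could be measured. PDIA3/PDIA3P fell by 3.78, against -1.47 for PDIA3 and -1.02 for PDIA3P. WASH2P/WASH5P rose by 1.79, against 0.10 for WASH2P and 0.09 for WASH5P. RGPD1/RGPD2 and 5 more fell by 3.29, against 0.64 for RGPD3 and 0.26 for RGPD6. NME1/NME2 fell by 2.36, against 0.21 for NME2, and HLA-B/HLA-C/MICA changed by -0.74 against 1.48 for HLA-C. All of these differences passed. In CHCHD2/CHCHD9 the shared probe sets rose by 1.75 in induced cells, where CHCHD2's own changed by -0.57, a difference of 2.32 (adjusted p = 4.2e-05). For the shared exon of a readthrough, DNAJC25/DNAJC25-GNG10 changed by 0.72 and DNAJC25 by -1.10 in uninduced cells, a difference of 1.82 that passed.

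In some entries the shared value differed from 1 listed gene and not from the other. Those that follow were picked out for this after their values were seen, so they are a description and carry no test. PCBP2/PRR13 joins a poly(C)-binding protein gene to its neighbour. It changed by -1.24 in uninduced cells, beside -1.30 for PRR13 and -2.91 for PCBP2. EWSR1/FLI1 joins an RNA-binding protein to a transcription factor encoded on another chromosome, and changed by 0.55 beside -1.54 for EWSR1 and 0.21 for FLI1. ARHGAP19/SLIT1 changed by -1.87, beside -1.74 for ARHGAP19 and -0.14 for SLIT1, an axon guidance ligand. In induced cells TUBA1A/TUBA1B changed by -2.09, beside -1.68 for TUBA1B and -0.28 for TUBA1A. KIAA0391/PSMA6 changed by -2.65 in induced cells, beside -2.19 for PSMA6 and -0.79 for KIAA0391.

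The probe sets of 1 entry were not uniform. Of the shared entries 319 had 10 or more members, and the median SD of the Xrn1 change among the probe sets of an entry was 0.86 in uninduced and 0.76 in induced cells. Calls in both directions occurred within 41 of these entries in uninduced and 38 in induced cells. These values include the noise of single probe sets and were not worked out for entries of 1 symbol. They therefore do not show a trait particular to shared entries. KIAA1245/NBPF1 and 7 more had 128 probe sets, whose changes ran from -5.04 to 1.40, with 80 called lower. NOMO1/NOMO2/NOMO3, duplicated genes of an endoplasmic reticulum membrane protein, had 114, of which 99 were lower and 3 higher. GOLGA8A/GOLGA8B had 56, with 7 higher and 4 lower. RPSA/RPSAP15 had 29 in which 7 were lower in uninduced cells and 6 higher in induced cells, with a range from -1.01 to 4.18 in the latter.

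The brightest members were at the other end. A DHRSX/ZBED1 probe set had the highest mean, 12.87, followed by F8A1/F8A2/F8A3 at 12.73. DHRSX/ZBED1 read 13.09, 13.07 and 12.94 without Xrn1 and 12.33, 13.0 and 12.69 with it, in uninduced cells, and its change of -0.36 did not pass. Probe sets of RAB6A/RAB6C, KIF4A/KIF4B and NOTCH2/NOTCH2NL were at 12.1 to 12.4, and none of them was called in either Xrn1 comparison. Their levels are single-probe-set values, and levels of different probe sets are not compared as amounts of RNA.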

How the data were processed

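Array RNA from 12 samples was measured on exon arrays. Per the submitters' processing notes the authors used RMA from the oligo package, and the deposited values are log2 signals per probe set. The sources used here do not give versions, the array annotation build or filters. RMA includes quantile normalisation, so changes are relative within an array. Gene symbols came from the platform's probe-to-gene table, updated through RefSeq gene names. The 705699 probe sets with a mean above the median were fitted with limma 3.58.1 (R 4.3.3) with 4 group means, with Benjamini-Hochberg adjustment over all of them and a threshold of 0.05. Entries are means of at least 3 kept probe sets with the same symbols. The members, lists and tests were chosen with earlier results of these data known. Entries named in the text are, per contrast, the 5 largest rises and falls among called entries with groups apart, per class the 2 smallest p in each Xrn1 contrast, and per family the entry with most probe sets and that with the smallest p in any contrast; ATM/NPAT, RABL2A/RABL2B and the single probe sets were chosen after their values were seen. Precision is limited by 3 arrays a group. The procedure was tested on simulated data. Of entries given a change of 1 on the log2 scale, 0% to 2.5% were called, depending on the contrast. Of those given a change of 2, 93% to 94.5% were called in contrasts of 2 groups and 49.5% in the interaction. Changes near 1 could thus go uncalled where few entries change. Alternatives tried were the filter, centring, cyclic loess, each feature's own spread, a block, medians, at least 2 probe sets an entry, and arrays left out. The block was the sample number for the Xrn1 and interaction contrasts and the replicate number for the induction contrasts.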

Additional observations from a re-analysis of the deposited data

Results flagged for a closer look

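For 14 named shared entries the effect of Xrn1 differed between induced and uninduced cells, both by limma's interaction test over all 17757 entries and with the differences of the 2 states wholly apart. They are a named subset of 185 entries called, of which 94 had the differences apart. Of shared entries 22.1% were called, against 21% of all entries, and 15.8% had the differences apart, against 21.6% of all. The 14 were picked by these 2 criteria, so meeting both adds no further support. A positive value means a less negative or more positive change in induced cells, and the standard error is 0.49 for each.

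The difference was 2.49 for GAGE10/GAGE12B and 11 more, 2.47 for C17orf49/RNASEK and 2.30 for CHCHD2/CHCHD9. It was 2.28 for LRRC37A/LRRC37A2/LRRC37A4, 2.28 for DPH1/OVCA2 and 2.22 for FUT5/NDUFA11, a fucosyltransferase gene beside a gene of respiratory complex I. FUT5/NDUFA11 fell by 1.13 in uninduced and rose by 1.09 in induced cells. Its interaction was lost without induced untreated replicate 1 (1.78, adjusted p = 0.056), and the call of its rise in induced cells was lost without that array or induced Xrn1 replicate 3. The difference was 2.16 for NME1/NME2, 1.99 for RPS26/RPS26L, 1.78 for ZNF417/ZNF587 and 1.60 for RPSA/RPSAP15. In ZNF417/ZNF587 the changes were -2.59 and -0.81, and leaving out any 1 of 7 arrays ended the call of the second. In RPSA/RPSAP15 the changes were -1.06 and 0.54, and the first lost its call without uninduced untreated replicate 1 or uninduced Xrn1 replicate 1.

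In the other direction it was -2.04 for TSSK1A/TSSK1B and -1.72 for GTF2A1L/STON1/STON1-GTF2A1L, a readthrough of an endocytic gene into a germ cell transcription factor. The latter changed by 1.48 in uninduced and -0.24 in induced cells. It was -1.61 for UGT2B15/UGT2B17, enzymes of androgen clearance, with changes of 0.89 and -0.72. It was -1.54 for PCDHGA12/PCDHGC4, with 1.62 and 0.08. ZNF417/ZNF587, RPSA/RPSAP15 and GTF2A1L/STON1/STON1-GTF2A1L each lost the call without induced untreated replicate 1, induced Xrn1 replicate 1 or 3, or uninduced Xrn1 replicate 2. UGT2B15/UGT2B17 lost it without those, induced Xrn1 replicate 2 or uninduced untreated replicate 3. PCDHGA12/PCDHGC4 lost it without induced untreated replicate 1, any induced Xrn1 array, uninduced untreated replicate 2, or uninduced Xrn1 replicate 2 or 3. None of the 14 was called with the entry's own spread.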

How the results depend on the processing

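The total counts of members and entries called for Xrn1 in uninduced cells stayed within 1.5 times under every alternative run, but their upward counts of 457 and 63 did not. Upward members were 288 without the sample pair numbered 5 and 268 with own spread, and upward entries were 25 without that pair, 36 with medians and 104 with at least 2 probe sets an entry. With 1 array left out, members ranged from 2321 to 3355 and entries from 289 to 367. In induced cells members ranged from 823 to 2998 and entries from 183 to 434, and each feature's own spread gave 888 and 105. For induction without Xrn1 members stayed at 0 and entries ranged from 0 to 308. Entries were 2 with no filter, 5 with at least 2 probe sets an entry, and 0 with own spread, with medians or without the sample pair numbered 5. For induction with Xrn1 members ranged from 0 to 15 and entries from 1 to 7. Members were 5 with cyclic loess, 0 with own spread and 3 without pair 5, and entries were 2 above the upper quartile, 1 with own spread and 1 without pair 5. For the interaction members ranged from 0 to 793 and entries from 10 to 389. Members were 24 with no filter, 4 above the upper quartile, and 0 with cyclic loess, own spread or without pair 5. Entries were 283 with no filter, 62 above the upper quartile, 46 with cyclic loess, 0 with own spread, 69 with medians and 1 without pair 5. With the sample number as a block, which pairs each digested array with its undigested one, the interaction entries were 22. Entries for Xrn1 were then 302 in uninduced and 324 in induced cells, and members 2930 and 2121. The block was not used in the main test. Deviations of arrays with the same sample number correlated at -0.23 to -0.01 over members and -0.70 to 0.11 over entries. For the same replicate number, across induction states, they were -0.40 to 0.07 over members and -0.63 to 0.11 over entries. With negative correlations a test that ignores the pairs can understate the error of the Xrn1 changes. Among named entries no change reversed, and own spread kept 41 of 52 calls in uninduced cells, 28 of 56 in induced cells and 0 of 25 in the interaction. The cause of these differences was not tested. Signal limits dim entries, since background was not measured separately.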
